A study of Mus musculus with 12 samples.

Results

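The aldo-keto reductases of family 1 (AKR1) were examined in mouse ovarian follicles that had been vitrified, that is, cooled into a glass-like state for storage, against follicles that had stayed fresh. The genes were taken as the symbols beginning with Akr1 in the authors' deposited table of vitrified against fresh follicles, together with the pseudogene Gm2123, which lies next to Akr1c13 in the genome. This gave 9 of the 11806 genes, namely Akr1a1, Akr1b3, Akr1b8, Akr1b10, Akr1c13, Akr1c14, Akr1cl, Akr1e1 and Gm2123. The set was selected on symbol and position after its deposited fold changes and p-values in this same contrast were known, so these are given as a description and were not tested further.

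The vitrified group had 6 libraries and the fresh group 6, each from a single follicle of a 16-day-old CD-1 mouse, an outbred stock. In both groups the follicle was enclosed in 0.5% alginate gel and cultured over 8 days, the medium holding 10 mIU/mL rFSH (a recombinant follicle-stimulating hormone), before its RNA was sequenced by a Smart-seq protocol. Which follicles came from the same animal is not stated in the labels, so a difference between the groups and one between animals cannot be told apart. If follicles within a group shared an animal, p-values that treat them as independent are too small. If animals gave follicles to both groups, the direction of the error is not known here. The deposited table gives a pooled total, a fold change and its p-value for each gene, so no level per follicle can be shown here.

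Aldo-keto reductases are soluble enzymes that mostly use NADPH to reduce aldehydes and ketones, among them sugars, products of lipid peroxidation, prostaglandins and steroids. In the ovary some 1C members are known for the breakdown of progesterone. Whether Akr1c13 takes part in it was not tested here. Akr1c18 encodes the 20-alpha-hydroxysteroid dehydrogenase that inactivates progesterone when the corpus luteum regresses in rodents, and Akr1c14 encodes a 3-alpha-hydroxysteroid dehydrogenase, which acts on the reduced products of progesterone. Most mouse 1C genes stand side by side on chromosome 13 and resemble one another closely.

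Of the 9 genes, 2 fell in vitrified follicles and 0 rose, judged by an adjusted p under 0.05 in the authors' deposited table. Both genes that fell, Akr1c13 and Gm2123, are neighbours on chromosome 13, and each was more than 11-fold lower. The other 7, which include the abundant Akr1cl, Akr1c14 and Akr1a1, did not pass. Over all genes of the authors' deposited table, 0.529% of the 10963 genes with an adjusted p were called, 0.246% higher and 0.283% lower. Because the same contrast entered the choice of the genes, nothing is read from their count against these shares. All 9 genes had an adjusted p.

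Akr1c13, a member of the 1C subfamily, spans chr13:4191150-4205596 on the plus strand of GRCm38, the assembly called mm10. Its closest relative was Akr1c12, whose gene lies on the minus strand of the same cluster and has no row among the genes analysed here. The coding sequences of Akr1c13 and Akr1c12 were 96.2% identical, with 37 differences in 969 bases and 0 gaps. A read from one can therefore be taken for the other, and 3 pairs of sequence show how far they can be told apart. The first pair is the stretch of 60 coding bases within 1 exon where they differ most, positions 370 to 429 of the coding sequence in exon 4, at chr13:4196433-4196492 on the plus strand for Akr1c13 and at chr13:4274365-4274424 on the minus strand for Akr1c12, with the 9 bases that differ in capitals.
Akr1c13: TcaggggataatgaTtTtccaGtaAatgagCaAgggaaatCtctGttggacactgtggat
Akr1c12: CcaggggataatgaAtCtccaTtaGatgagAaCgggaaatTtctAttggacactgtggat

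The second is the longest coding stretch within 1 exon without any difference, 168 bases from position 85 to 252 of the coding sequence in exon 2, at chr13:4194034-4194201 in Akr1c13 and at chr13:4276229-4276396 on the minus strand in Akr1c12. A short read that lies wholly inside this stretch has no base that assigns it to either gene.
Akr1c13 and Akr1c12: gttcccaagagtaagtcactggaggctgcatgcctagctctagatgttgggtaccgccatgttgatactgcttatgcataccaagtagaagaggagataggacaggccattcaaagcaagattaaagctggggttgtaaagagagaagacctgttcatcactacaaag

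The third pair is the sequence upstream of the first transcript base, from RefSeq's promoter table for GRCm38.p6, which shows that the likeness runs beyond the transcript. The part shown ends before the GENCODE transcript start and covers chr13:4190937-4191149 on the plus strand for Akr1c13 and chr13:4279434-4279649 on the minus strand for Akr1c12. Capitals mark bases that differ from the other sequence or have no partner in it. The alignment was identical in 93.5% of 217 columns, whereas the other 90 pairs among Akr1 promoters in that table had 40.4% to 59.0% over 250 bases.
Akr1c13: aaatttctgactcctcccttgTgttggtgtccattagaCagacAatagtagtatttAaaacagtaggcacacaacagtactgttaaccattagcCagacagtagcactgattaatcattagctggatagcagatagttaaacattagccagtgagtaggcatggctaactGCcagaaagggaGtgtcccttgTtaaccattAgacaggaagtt
Akr1c12: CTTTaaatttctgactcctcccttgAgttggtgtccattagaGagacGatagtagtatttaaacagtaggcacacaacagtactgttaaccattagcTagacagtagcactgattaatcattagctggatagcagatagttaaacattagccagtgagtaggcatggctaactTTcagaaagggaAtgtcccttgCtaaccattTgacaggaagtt

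Among windows of 50 bases taken every 25 bases along the transcripts of Akr1c13, 28 of 96 (29.2%) occurred without a mismatch in another gene, and that gene was Akr1c12 in each case. The remaining windows, such as those across the first stretch above, carry at least 1 base that differs. No source used here states how the authors' counting treated a read that fits both genes, so the value of Akr1c13 is uncertain to that extent and may include reads of Akr1c12.

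Gm2123 lies at chr13:4168145-4170980 on the minus strand, 20.2 kb before Akr1c13, and is annotated as a processed pseudogene, a copy of a messenger RNA inserted into the genome. Its sequence is not that of an aldo-keto reductase. A search of its 2836 bases against all annotated transcripts (blastn, E value up to 1e-05) matched 0 Akr genes. Slc23a2, which encodes a sodium-dependent vitamin C transporter and lies on chromosome 2, matched 49.9% of it. Identity was 73.9% over the 3 matches with the longest coding transcript of Slc23a2. The stretch of 60 bases most like Slc23a2 is shown, from chr13:4168941-4169000 in Gm2123 and chr2:132060708-132060767 in exon 14 of Slc23a2, both on the minus strand, with the 7 differences in capitals.
Gm2123: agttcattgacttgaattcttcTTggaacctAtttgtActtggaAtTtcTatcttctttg
Slc23a2: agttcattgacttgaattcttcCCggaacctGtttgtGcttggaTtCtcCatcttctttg

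None of the 112 windows of Gm2123 occurred in another gene (0 shared windows), so the resemblance to Slc23a2 is too distant for exact matches of that length. Slc23a2 itself stood at a log2 fold change of 0.22 (derived interval -0.34 to 0.78) and did not pass (adjusted p = 0.999), per the authors' deposited table. Gm2123 thus belongs to the set by position, and its value is described beside that of Akr1c13 for that reason.

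In the authors' deposited table Akr1c13 was 11.7-fold lower in vitrified follicles, or -3.54 on the log2 scale, with a derived 95% interval of -4.60 to -2.49 (adjusted p = 1.6e-07). Gm2123 was 12.3-fold lower, or -3.62 on the log2 scale, with an interval of -4.99 to -2.25 (adjusted p = 0.00028), in the authors' deposited table. Fold and p give these intervals if the p came from a normal test. With a heavier-tailed t distribution (10 degrees of freedom) in place of the normal one the adjusted p became 0.22 for Akr1c13 and 0.51 for Gm2123, and neither was called (0 of 9). Both intervals lay wholly below a 2-fold fall, and the intervals of the other 7 genes all lay above them. Among the 10963 genes with an adjusted p, Gm2123 had the fall ranked 2 and Akr1c13 the fall ranked 3 by size, after the guidance ligand gene Slit2 at -4.10 in the authors' deposited table. In bulk RNA of a whole follicle, fewer cells that express a gene and less RNA per cell cannot be told apart.

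**Figure D1:**
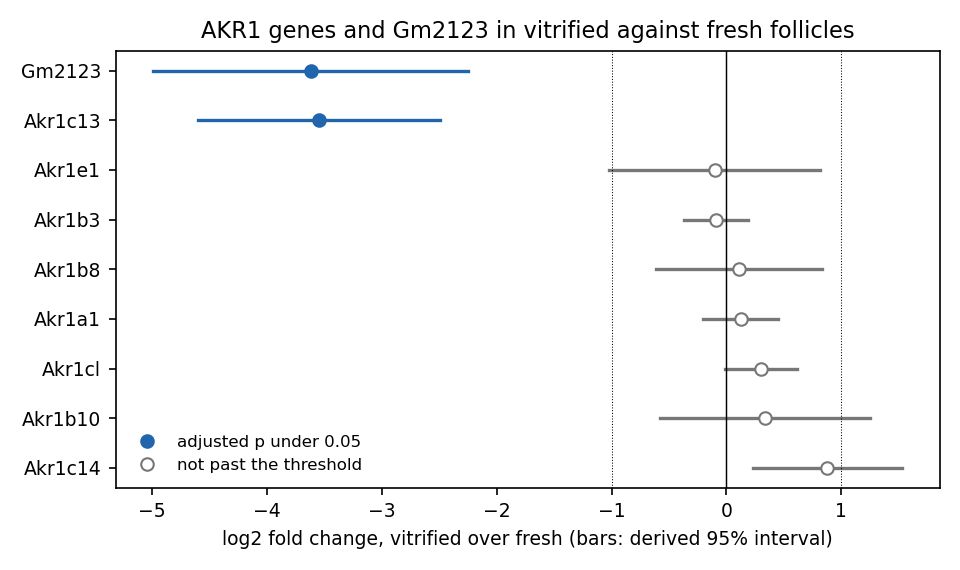
Deposited log2 fold change of the 8 Akr1 genes and Gm2123 (points), vitrified over fresh, with derived 95% intervals (bars); dotted lines mark 2-fold. Gm2123 at -3.62 and Akr1c13 at -3.54 lie apart from the other 7 genes, which lie between -0.10 and 0.88.

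The pooled total behind Akr1c13 was 299 and that behind Gm2123 was 106 in the authors' deposited table, against a total of 103329 for Akr1cl, so both changes rest on low totals. If the totals were plain sums over the 12 libraries and the folds ratios of group means, which the headers do not state, the total of Akr1c13 would divide into a mean of 3.94 per vitrified and 45.9 per fresh follicle. On the same assumption Gm2123 would have a mean of 1.326 per vitrified and 16.3 per fresh follicle. Whether all fresh follicles or a few of them carried this signal was not analysed here, since the values are pooled. The derived standard error of Akr1c13 was 0.54 on the log2 scale, larger than that of 98.8% of 2004 genes of similar total, the smaller of the totals being at least about 0.75 times the larger, whose median was 0.28. That of Gm2123 was 0.70, larger than in 97.7% of 1965 genes of similar total, against a median of 0.43. The genes were matched on pooled total and not on its split between the groups. No unusual spread between follicles is therefore read from these shares.

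**Figure D2:**
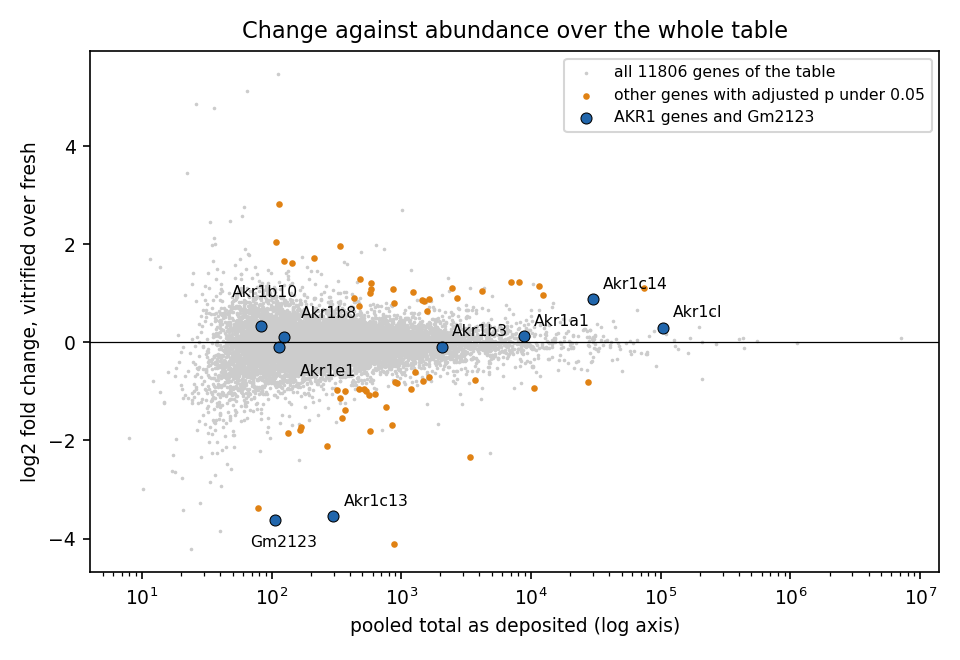
Deposited log2 fold change, vitrified over fresh, against the pooled total (log axis) for all 11806 genes, with other genes of an adjusted p under 0.05 in orange and the AKR1 genes and Gm2123 in blue. Akr1c13 (total 299) and Gm2123 (total 106) lie far below most genes of their total, while Akr1cl, Akr1c14 and Akr1a1 lie far to the right, near or above 0.

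The cluster on chromosome 13 holds 9 of the 16 annotated Akr1 genes, and 3 of these 9 are among the genes analysed here. Akr1c14, at chr13:4049011-4090688 and 100 kb before Akr1c13, stood at 0.88 on the log2 scale in the authors' deposited table, and Akr1e1, 385 kb behind Akr1c13, at -0.10. The 6 others, Akr1c18, Akr1c19, Akr1c12, Akr1c6, Akr1c20 and Akr1c21, have no row there, which does not show that their transcripts were lacking. Within 500 kb of Akr1c13 the only gene with a row besides these 3 and Gm2123 was Net1, a guanine nucleotide exchange factor gene, at 0.67 on the log2 scale (adjusted p = 0.32) in the authors' deposited table. The fall was therefore seen in 2 of 5 genes with a row in that window, against 0.283% of all genes tested. The window holds 32 annotated genes, and the pair stood within 20.2 kb of each other. It was centred on Akr1c13, and both genes of the pair were chosen with their values known. Nothing about the region is therefore read from this count. Of the 57 called genes with coordinates, 3 pairs lay within 100 kb of each other, a count made after the values were seen. Gm2123 with Akr1c13 and Dynlt1b with Tmem181b-ps moved in the same direction, and Gm28048 with Zrsr1, which overlap, in opposite ones.

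**Figure D3:**
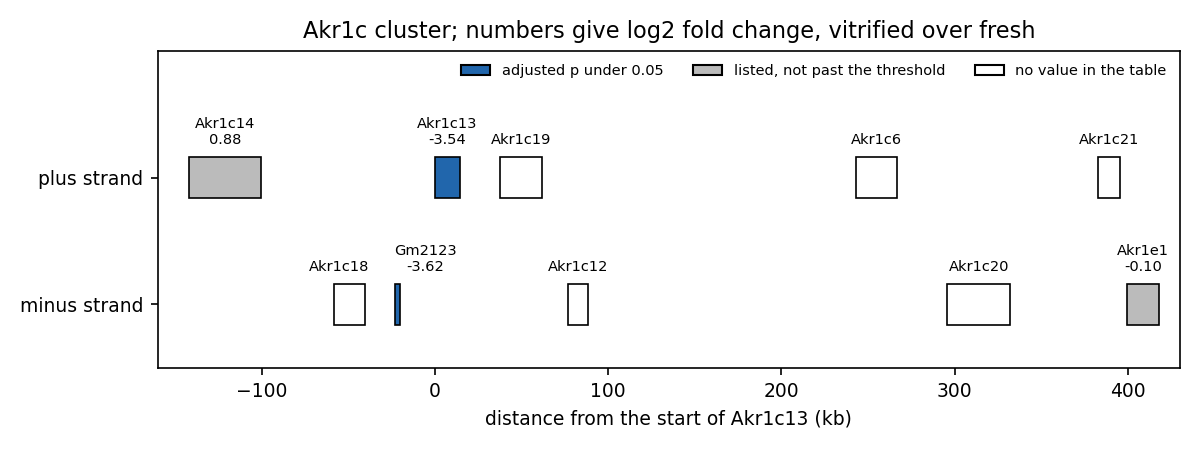
Annotated Akr1 genes of the chromosome 13 cluster and Gm2123 by distance from the start of Akr1c13 (kb), on the plus strand (upper row) and the minus strand (lower row), with log2 fold changes, vitrified over fresh, under the names. The 2 blue genes with an adjusted p under 0.05 stand next to each other, with Akr1c18 and Akr1c14 on one side and Akr1c19 on the other; Akr1c14 at 0.88 and Akr1e1 at -0.10 (grey) did not pass, and white genes have no value.

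Akr1c14, the 3-alpha-hydroxysteroid dehydrogenase gene, was 1.84-fold higher in vitrified follicles in the authors' deposited table, with a log2 interval of 0.23 to 1.53. Its unadjusted p was 0.0081 and its adjusted one 0.34 in the authors' deposited table, so it did not pass. Its derived standard error of 0.33 was larger than that of 97.4% of the 39 genes of similar total, whose median was 0.20. Akr1c14 shares 3.28% of its windows with other transcripts, all of them with the predicted gene Gm18857. Akr1cl, which is filed as a 1C-like gene and lies on chromosome 1 (chr1:65012689-65032759), stood at 0.30 (-0.01 to 0.62; adjusted p = 0.76) in the authors' deposited table. Its closest annotated relative by coding sequence was Akr1c18, at 77.5% identity, and only 0.676% of its windows occur there. A further 6.08% occur in Gm8550, a processed pseudogene within its own span.

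Of the reductases for sugars and other aldehydes 0 passed the threshold. Akr1a1, the aldehyde reductase that makes a precursor of vitamin C in mice, had the log2 value 0.13 (-0.20 to 0.45) per the authors' deposited table. Akr1b3, the aldose reductase that turns glucose into the osmolyte sorbitol, had -0.09 (-0.37 to 0.19) per the authors' deposited table. For both the interval excluded a 2-fold change in either direction, which also held for Akr1cl and Akr1b8, 4 of the 9 genes in all. Over all genes tested the share was 69.1%. The aldose-reductase-like genes of the 1B subfamily were less precise, with Akr1b8 at 0.11 (-0.61 to 0.83) and Akr1b10 at 0.34 (-0.57 to 1.25) in the authors' deposited table. Akr1e1, which makes a reductase of anhydrofructose, had -0.10 (-1.02 to 0.82) per the authors' deposited table. The totals were low, 82.4 for Akr1b10 and 114 for Akr1e1 in the authors' deposited table, and the intervals still held a 2-fold rise of Akr1b10 and a 2-fold fall of Akr1e1. Outside family 1 the superfamily had 1 row, the aflatoxin aldehyde reductase gene Akr7a5, at 0.02 (-0.37 to 0.41) in the authors' deposited table.

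Akr1b3 resembles other annotated transcripts that could share its reads. Its 438 windows ran along all its annotated transcripts, whose merged exons hold 8384 bases. The transcript with the longest coding sequence holds 1387, and the share for that one alone is not given here. Of the 438 windows 27.2% occur in other transcripts. The share was 25.8% in Gm38056, 15.8% in Gm6644, 14.4% in Gm6736 and 10.5% in Gm12138, several windows being found in more than 1 of them. The first has no settled gene type and the others are processed pseudogenes. Gm6644 lies within the span of Gm38056, so their reads cannot be told apart without strand or a rule for overlaps. These 4 have rows of their own, with log2 fold changes of -0.23 for Gm38056, -0.02 for Gm6644, -0.13 for Gm6736 and 0.16 for Gm12138 in the authors' deposited table. Of these 4, 0 had an unadjusted p under 0.05, which 770 of the 10963 genes with an adjusted p had (7.02%), the lowest being 0.36 for Gm38056 in the authors' deposited table. Akr1b8 and Akr1b10 shared 3.53% and 3.17% of their windows with other genes, chiefly each other and Akr1b7, and Akr1a1 shared 0.538%. Over the 28 pairs of the 8 coding Akr1 genes with a row, coding identity ranged from 54.4% to 85.1%, with Akr1b8 and Akr1b10 the closest.

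Abundance differed far more between these genes than their change did. Per kb of the transcript with the longest coding sequence, pooled over both groups, the order was Akr1cl with a total of 58676, Akr1c14 with 9414, Akr1a1 with 6176, Akr1b3 with 1478, Akr1c13 with 237, Akr1b8 with 91.7, Akr1b10 with 60.1, Gm2123 with 37.3 and Akr1e1 with 32.8. Akr1cl ranked 15 among all genes with a length, and it held 71.3% of the 9 genes' summed total, taken from the authors' deposited table. Akr1c13 held 0.206% of that sum. Neighbours in the order such as Gm2123 and Akr1e1 were 1.13-fold apart, and no spread over follicles is at hand to tell them apart. With all exons merged, which counts retained introns, Akr1b10 moved to the last place at 23.3 per kb, while the first 6 genes kept their order. Akr1b3 then went from 1478 to 244 per kb, close to Akr1c13 at 208. The gap between these genes thus depends on the length used.

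**Figure D4:**
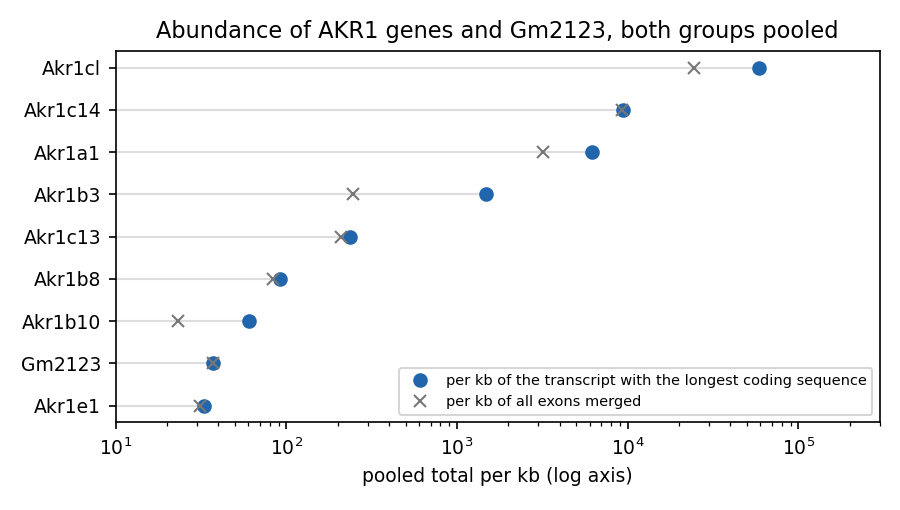
Pooled total per kb (log axis) of the 8 Akr1 genes and Gm2123, per kb of the transcript with the longest coding sequence (blue points) and of all exons merged (crosses). Akr1cl at 58676 is 6.23 times above Akr1c14 at 9414, and Akr1c13 at 237 stands in the middle of the order.

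Promoters of 7 of the 9 genes were in RefSeq's table, those of Akr1b3 and Gm2123 being the ones without an entry. The letters TGACNNNGC, the core of the antioxidant response element, were found on either strand in the 250 bases before the start of 1 gene, Akr1cl, against 10.2% of 32851 promoters. GGGCGG was found in Akr1b8 and Akr1b10, against 32.7% of promoters, and CCAAT in Akr1c14, Akr1cl and Akr1e1, against 33.8%. Akr1c13 held TTTAAA, as did Akr1cl, against 12.1% of promoters, and none of the other letters searched, which also included TATAAA (12.4%), found only in Akr1b8. These are matches of letters, with no measurement of binding.

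The genes that make, inactivate and sense progesterone were described from lists drawn up from textbook roles. Of 11 genes listed for progesterone synthesis, among them Cyp17a1 and Cyp19a1, which act after progesterone, 1 rose, 0 fell and 10 did not pass in the authors' deposited table. Over all genes tested 0.246% rose and 0.283% fell. The list's median log2 fold change was 0.08 against -0.02 over all genes tested. Scarb1, Star and Fdx1 had an unadjusted p under 0.05, which 7.02% of all genes tested had. The one that rose was the lipoprotein receptor gene Scarb1, at 1.15 (0.68 to 1.62; adjusted p = 0.0015) in the authors' deposited table. Its call was lost with the t distribution, as were all 58 calls of the whole table. The cholesterol transfer gene Star stood at 1.596 (adjusted p = 0.11), the ferredoxin gene Fdx1 at 0.67 (adjusted p = 0.21) and Cyp17a1, which takes progesterone on towards androgens, at 1.47 (adjusted p = 0.74) in the authors' deposited table. The side chain cleavage gene Cyp11a1 stood at 0.47, and Hsd3b1, which makes progesterone from pregnenolone and had the highest total of the list, 435485, at -0.11 in the authors' deposited table. Hsd3b2 at -0.09, Hsd3b6 at 0.08, Fdxr at -0.02 and aromatase, Cyp19a1, at -0.02 were the other named genes of the list in the authors' deposited table.

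The list for inactivation of progesterone and related steroids also held enzymes with other main roles. Examples are Srd5a3, a polyprenol reductase, and Hsd17b12, a 3-ketoacyl-CoA reductase, so its counts do not describe progesterone breakdown alone. Of its 17 genes 10 had a row and 0 passed in either direction (0.529% of all genes tested), with a median of 0.05 in the authors' deposited table. An unadjusted p under 0.05 was found for 2 of them, against 7.02% of all genes tested. These 2 were Akr1c14, given above, and the mitochondrial dehydrogenase gene Hsd17b10, at 0.76 (adjusted p = 0.49) in the authors' deposited table. Srd5a1, the 5-alpha-reductase gene that precedes Akr1c14 in the path from progesterone, stood at -0.56 and Srd5a3 at 0.36 in the authors' deposited table. The carbonyl reductase gene Cbr1 stood at -0.28 and the glucocorticoid-oxidising Hsd11b2 at 0.49 in the authors' deposited table. Hsd17b1, the estradiol-forming dehydrogenase of granulosa cells, stood at -0.06, Hsd17b4 at 0.04, Hsd17b7 at 0.03 and Hsd17b12 at 0.07 in the authors' deposited table. The 7 without a row were Akr1c18, Akr1d1, Srd5a2, Dhrs9, Hsd17b11, Hsd11b1 and Cyp21a1.

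Of the 8 genes with a row for reception and control of progesterone 0 passed in either direction, against 0.529% of all genes tested. The 1 with an unadjusted p under 0.05 (7.02% of all genes tested) was the membrane-associated receptor component gene Pgrmc1, at 0.32 in the authors' deposited table. The nuclear receptor gene Pgr stood at 0.63 on a total of 72.6, and Pgrmc2 at -0.43, in the authors' deposited table. The membrane receptor genes Paqr7 and Paqr8 stood at 0.21 and -0.41 in the authors' deposited table. Prlr, the receptor of prolactin, which represses Akr1c18 in the rodent corpus luteum, stood at -0.07, and its signal transducers Stat5a and Stat5b at 0.05 and -0.07, in the authors' deposited table. Ptgfr had no row.

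The lists for substrates of aldo-keto reductases and for the supply of NADPH held 0 genes past the threshold in either direction in the authors' deposited table (0.529% of all genes tested). The polyol and glucuronate list had a median of 0.01 over 7 genes, 2 of them at an unadjusted p under 0.05 (7.02% over all genes tested), and NADPH supply one of 0.10 over 7 genes, none of them under 0.05 (0), in the authors' deposited table. Prostaglandin metabolism had a median of 0.34 over 7 genes, 6 of them above 0, and 0 at an unadjusted p under 0.05 in the authors' deposited table. The glyoxalase genes Glo1 and Hagh, which clear methylglyoxal, stood at 0.60 and -0.62 with unadjusted p-values 0.015 and 0.019, per the authors' deposited table. The genes of lowest p for NADPH supply, the transhydrogenase gene Nnt and the malic enzyme gene Me1, stood at -0.28 and 0.25, and those for prostaglandins, Ptges and Ptgr2, at 0.33 and 0.46, in the authors' deposited table. All 7 NADPH genes had an interval within 2-fold, which 69.1% of all genes tested had.

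**Figure D5:**
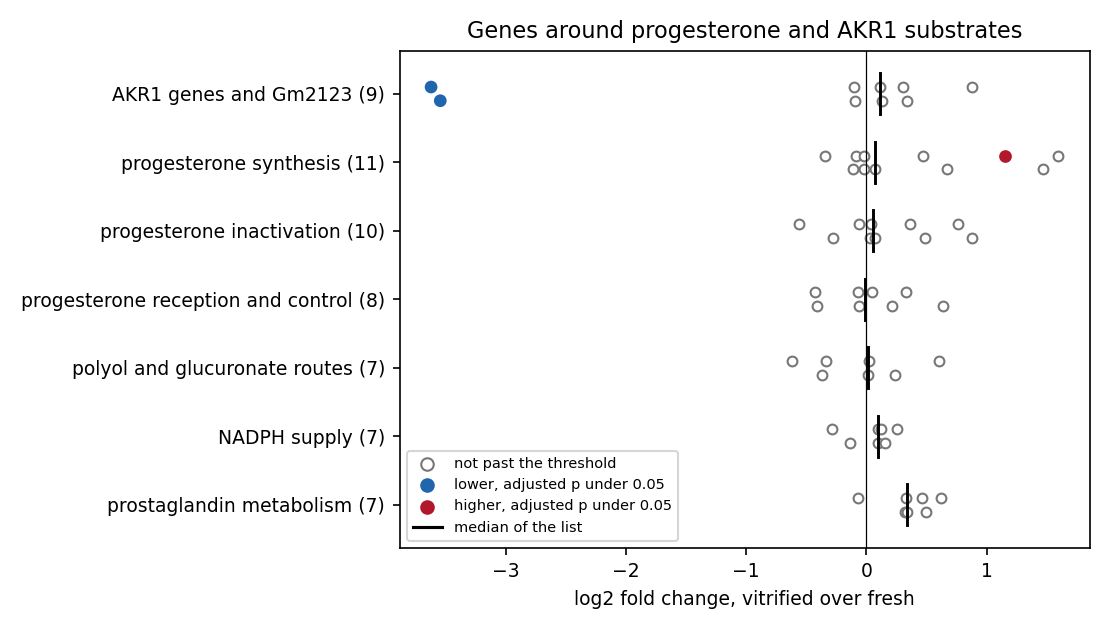
Deposited log2 fold change, vitrified over fresh, of each gene with a row (points) in the AKR1 set and 6 lists, with the number of genes in brackets and the median as a black line; filled points have an adjusted p under 0.05. Only Akr1c13 and Gm2123 (blue) and Scarb1 (red) are filled, and the list medians lie between -0.01 and 0.34.

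Markers of the cells of a follicle were set beside these values. Of 6 granulosa markers 5 had a row, with totals up to 1121840 for Inha and changes of -0.40 to 0.67 on the log2 scale in the authors' deposited table. Of these 5, 1 had an unadjusted p under 0.05, Fshr at 0.67. All 6 oocyte markers with a row were higher, between 0.43 and 1.29, and all 4 theca markers, between 0.08 and 2.70, in the authors' deposited table. Of the 10963 genes tested, 5126 were higher. In both lists 0 passed the threshold (0.529% of all genes tested). An unadjusted p under 0.05 was found for 0 of the oocyte and 2 of the theca markers (7.02% of all genes tested). The stroma markers Pdgfra and Dcn stood at 0.46 and 0.12, and Col1a1 had no row. The theca marker of lowest p, Aldh1a1, stood at 1.19 (0.50 to 1.88; adjusted p = 0.098) in the authors' deposited table. The theca hormone gene Insl3 stood at 2.70 (1.06 to 4.34; adjusted p = 0.14) there, beside the higher values of Star and Scarb1. Cyp17a1, given above with the synthesis list, is itself 1 of the 4 theca markers. Lhcgr, the theca marker with the highest total, 15259, stood at 0.08. The endothelial marker genes Cdh5, Pecam1 and Kdr stood at -1.66, -1.25 and -1.42 in the authors' deposited table, beside the falls of Akr1c13 and Gm2123, and 0 of them had an unadjusted p under 0.05. Kdr has no adjusted p there, and Tek no row. Of the luteal markers Akr1c18 and Ptgfr, and of the immune markers all 3, had no row. The part of the cell makeup in these results was not tested.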

How the data were processed

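The study sequenced 12 single follicles by a Smart-seq protocol, per the labels' protocols. Per the submitters' processing notes the build was mm10 and the tools included DESeq2, Partek, HISAT2 and Bowtie2, each without its version or role. Counting rule, annotation and strand use: not given in the sources used here. Per the file headers, the authors deposited 1 comparison with a pooled total, a signed fold, a log2 fold change and a p-value, raw and adjusted (step-up), per gene, and 843 genes have no adjusted p. No value per follicle and hence no depth per library was at hand, so calls rest on the deposited adjusted p, taken as passed under 0.05.

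Standard errors and 95% intervals were derived from fold change and p, assuming a two-sided normal test. The arithmetic of this step was checked on simulated data. These data were drawn under the same normal assumption, so the assumption itself was not tested. Coordinates, transcripts and lengths came from GENCODE mouse release 21 (GRCm38), where 11644 symbols matched 1 gene, and promoters from RefSeq. Windows were compared on both strands. Alignments used Biopython 1.88 and BLAST 2.17.0, in Python 3.11.15. Genes were named by list: all Akr symbols, all progesterone genes, neighbours of Akr1c13 within 500 kb, and the 2 genes of lowest p in other lists; Slit2, Slc23a2, pseudogene copies and pairs of called genes were added after their values were seen. Genes, lists and tests were chosen with earlier results of these data known. A ranking of genes by likeness over samples was not made, as it needs values per follicle. The value of 1 gene of the progesterone synthesis list is not reported here.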

Additional observations from a re-analysis of the deposited data

How the results depend on the processing

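The log2 fold changes of all 9 genes kept their sign and moved by at most 0.02 when centred on the median of the genes tested or of those with a total of at least 1000. Under a t distribution (10 degrees of freedom) the calls were 0 over the whole table, 0 among the AKR1 set and 0 in the 6 lists. At an unadjusted p under 0.05 were 498 of the 10963 genes tested, 3 of the 9 set genes and 7 of 50 list genes. Akr1c13 then had an adjusted p of 0.22 and Gm2123 of 0.51, against a range over the other alternatives of 1.3e-07 to 1.7e-07 for Akr1c13 and one value of 0.00030 for Gm2123; heavier tails over this many genes are part of that alternative's construction, and the distribution behind the deposited p is stated nowhere in the labels or headers. At a total of at least 120, 1 gene of the set was called, because Gm2123 lies under that total. Requiring at least 2-fold left 35 genes over the whole table, with both genes of the set among them. With no filter on totals 58 genes were called.

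The share of windows found in other genes rose or fell with the window. With 36 bases it was 7.84% for Akr1b10. With 100 bases it was 21.6% for Akr1b3, 13.3% for Akr1c13 and 0 for Akr1a1, Akr1b8 and Akr1b10. With 1 mismatch allowed in 50 bases it was 43.75% for Akr1c13, 11.8% for Akr1b8 and 9.13% for Akr1b10. Another 18 of these values stayed within the 95% Wilson interval of the share given first. Leaving out a library could not be done on pooled values. No paired analysis was possible because the table holds no value per follicle.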
